A study of Mus musculus with 4 samples.

Results

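Alx1, Alx4, Tfap2a, Tfap2b and Six2 are transcription factor genes known from the frontonasal mesenchyme, the neural crest-derived tissue that builds the forehead, nose and mid-face. They are taken by gene symbol, a rule that reads no measured value, although the set was drawn up with earlier results of these data known. Each of the 5 had 1 transcript cluster with that symbol alone on the Affymetrix Mouse Gene 2.0 ST array, out of 22180 named genes. Levels are log2 expression from RMA, on which 1 unit is a 2-fold difference and folds of dim genes are compressed. RNA came from embryos of a mixed C57BL/6J and FVB/N background that were wild type or knockout for Tbx1, a T-box transcription factor gene of the pharyngeal apparatus. Head tissue was taken at embryonic day (E) 12.5 and palatal shelves, the outgrowths that form the secondary palate, at E13.5. Each of the 4 combinations of tissue and genotype was measured on 1 array. The sources used here do not describe the knockout allele or say whether embryos were pooled. The question for these genes was whether their levels differ without Tbx1, and between the head and the shelves.

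As background, cranial neural crest cells leave the dorsal neural tube, settle around the forebrain and in the pharyngeal arches, and respond there to signals from the overlying ectoderm. Alx1 and Alx4 encode paired-type homeodomain factors of the aristaless-like family that mark the upper and middle face, and their loss disturbs the skull vault and the facial midline. Tfap2a and Tfap2b encode the AP-2 alpha and AP-2 beta factors, which act in crest specification and facial growth and are also made in surface ectoderm and parts of the nervous system. Six2 encodes a sine oculis-type homeodomain factor of frontonasal and palatal mesenchyme, also known for keeping kidney progenitors undifferentiated.

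With 1 array per group, a difference between the knockout and wild-type array of a tissue has no replicate check and no p-value. Over the genes that entered (the higher of the 2 arrays at or above 6.16, the median over named genes and arrays), that difference had an SD of 0.157 across 11364 genes for the head and 0.259 across 11449 genes for the shelves. All 5 factors were above 6.16 on every array, so none entered through 1 array only. Probe sets that measure the same gene disagreed by an SD of 0.175 per cluster in the head and 0.226 in the shelves. Tbx1 read 6.83 in the wild-type and 6.25 in the knockout head, and 7.39 and 6.18 in the shelves. Head and shelves can be told apart by their markers: 14 of 14 fitted surface epithelium markers and 8 of 15 palatal and maxillary mesenchyme factors were higher in the shelves, and 14 of 14 neuron markers were higher in the head (limma adjusted p under 0.05 for each, additive fit described with the tissue comparison). Of all genes fitted, 13.0% were called higher in the shelves and 14.9% higher in the head. In these bulk samples fewer cells of a type and less RNA per cell cannot be told apart.

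No factor differed 2-fold between knockout and wild type in either tissue. In all, 0.0880% of genes did so in the head and 0.935% in the shelves. A second limit, called the 25% limit, was passed when the higher array of a pair was at least 25% above the lower one on the linear scale. In the head Tfap2a passed it with a lower level in the knockout, as did 2.41% of all genes, and no factor passed it with a higher level, as 1.74% of all genes did. In the shelves Tfap2b and Six2 passed it with a higher level in the knockout (7.60% of all genes) and Alx1 with a lower level (4.65% of all genes). The 5 had a median difference of 0.16 in the head and 0.20 in the shelves, against -0.02 and 0.02 over all genes that entered. With 5 genes, 1 gene moves any such share by a large step.

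**Figure D1:**
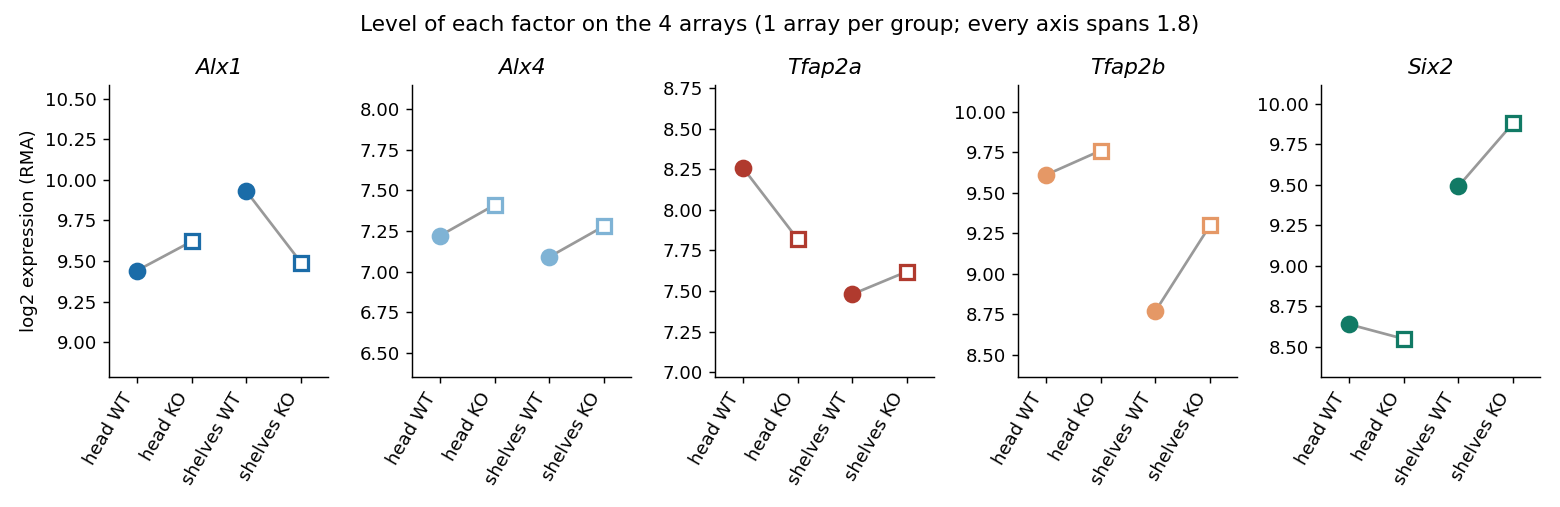
Log2 expression (RMA) of each factor on the 4 arrays, 1 array per group: filled circles are wild type, open squares knockout, and a grey line joins the arrays of 1 tissue. The axes of the 5 panels span the same range but start at different levels, so only differences within a panel can be read. Six2 sits higher on both shelf arrays than on both head arrays, and Alx1 is highest on the wild-type shelf array.

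The Alx genes differed from each other in the shelves. Alx1 read 9.44 in the wild-type head, 9.62 in the knockout head, 9.93 in the wild-type shelves and 9.49 in the knockout shelves. The wild-type shelf array was thus the highest of the 4, and the remaining arrays lay within a narrow band. Without Tbx1 it stood 0.18 higher in the head (1.13-fold), and its shelf difference was -0.44 (1.36-fold lower); 2.44% of genes that entered the shelf pair were as low or lower. Alx4 read 7.22 and 7.41 in the wild-type and knockout head, and 7.09 and 7.28 in the wild-type and knockout shelves. Alx4 spanned 0.32 over the 4 arrays, the narrowest range of the 5 factors, and was slightly higher in the knockout of both tissues (0.18 in the head and 0.20 in the shelves). In the shelves 17.6% of all genes were at least as much higher as Alx4.

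The array on which Alx1 was highest was also the array with the highest mean level of nasal and olfactory epithelium markers. Over all 14 markers of that list measured, the mean log2 level was 5.50 in the wild-type head, 5.55 in the knockout head, 7.03 in the wild-type shelves and 5.66 in the knockout shelves. Not every marker was highest in the wild-type shelves. Ebf3 read 9.69 in the wild-type head and 8.88 in the wild-type shelves, and Gnal 6.45 and 5.78. Ric8b, Ebf2 and Cyp2a5 were also highest on a head array, and the rest of the 14 on the wild-type shelf array. Cyp2g1, a cytochrome P450 of olfactory mucosa, differed by -4.17 between the shelf arrays, and Bpifa1, a secreted protein of upper airway epithelium, by -2.51. Cyp2g1 entered that pair through the wild-type array alone, as 5 of the list's 9 entering genes did, so the list is counted here over all its measured genes. All 14 were below 0 in the shelves, 9 of them past the 25% limit, and the median was -1.09. Over every named gene, entered or not, 8.85% passed that limit with a lower level in the knockout shelves. Among the list's sensory neuron genes, Stoml3, a stomatin-like gene of olfactory cilia, read 6.07 and 4.29 in the wild-type and knockout shelves, Gng8, a G protein gamma subunit, 8.13 and 6.91, and Cnga2, an olfactory channel subunit, 4.84 and 3.87. Omp, which marks mature olfactory neurons, read 5.61 and 5.40 there, and Gnal, an olfactory G protein alpha subunit, 5.78 and 5.75. Of these 5, Gng8 alone was above the limit for entry. The part of such tissue in the Alx1 difference was not tested.

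The AP-2 genes differed by genotype in different tissues. Tfap2a read 8.26 in the wild-type head, 7.82 in the knockout head, 7.48 in the wild-type shelves and 7.62 in the knockout shelves. The wild-type head array was the highest, and the shelf arrays were the lowest. The difference was -0.44 in the head, a 1.36-fold lower level, and 0.968% of genes that entered were as low or lower there. In the shelves it was 0.15, and 24.4% of genes were at least as much higher. Tfap2b read 9.61 and 9.76 in the wild-type and knockout head, and 8.77 and 9.30 in the wild-type and knockout shelves. The wild-type shelf array was the lowest for this gene. It differed by 0.16 in the head pair and by 0.53 in the shelf pair (1.44-fold higher), where 2.41% of genes were at least as much higher.

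Markers of other tissues that express AP-2 genes behaved differently on these arrays. Surface and oral epithelium, a known site of Tfap2a, had a mean marker level of 6.74 in the wild-type and 6.75 in the knockout head (15 markers), and 8.20 and 8.14 in the shelves. The mean of these markers was thus close between the head arrays and higher in the shelves, and the part of epithelium in the Tfap2a values was not tested. Neuron markers had a mean of 9.75 in the wild-type and 9.74 in the knockout head (14 markers), and 7.57 and 8.15 in the shelves. Like Tfap2b, that mean was lowest on the wild-type shelf array and higher on the knockout shelf array. In the shelves 13 of the 14 were above 0, and Elavl4 was below it (6.36 in the wild type and 6.08 in the knockout). The 25% limit was passed by 11 of the 14 with a higher level, against 7.25% of every named gene with no limit for entry. Of those 11, 3 entered through the knockout array alone, among them Gad2, a GABA-synthesising enzyme (1.11), and 8 were above the limit for entry on both arrays, among them Ina, an intermediate filament of neurons (1.48). Neural progenitor markers (10 measured) were split: 8 were below 0 in the shelves, led by Emx2, a homeobox gene of the forebrain (-1.19), and 2 above it, Sox1, a neural progenitor factor (1.15), and Sox2 (0.18). Their mean was 7.20 in the wild-type and 6.92 in the knockout shelves. The part of neural tissue in the Tfap2b difference was not tested.

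Six2 read 8.64 in the wild-type head, 8.55 in the knockout head, 9.49 in the wild-type shelves and 9.88 in the knockout shelves. Both shelf arrays were above both head arrays. In the head the knockout array differed by -0.09 (26.7% of genes were as low or lower), and in the shelves by 0.38 (1.30-fold higher, with 5.32% of genes at least as much higher). The maxillary and palatal mesenchyme factors, 15 measured, had a mean of 9.30 in the wild-type and 9.49 in the knockout shelves. In that pair 13 of 15 were above 0, as were 6317 of the 11449 genes that entered. The 25% limit was passed by 3 of the 15 with a higher level (7.60% of all genes). These were Dlx2, a distal-less factor of the arches (0.53), Lhx6, a LIM-homeodomain factor of oral mesenchyme (0.40), and Shox2, a homeodomain factor of the anterior palate (0.36). The median shelf difference of the 15 was 0.18. Hypoxia genes were higher on the knockout shelf array, all 12 measured being past the 25% limit (median 0.64), against 7.25% of every named gene. The part of either in the Six2 difference was not tested.

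**Figure D2:**
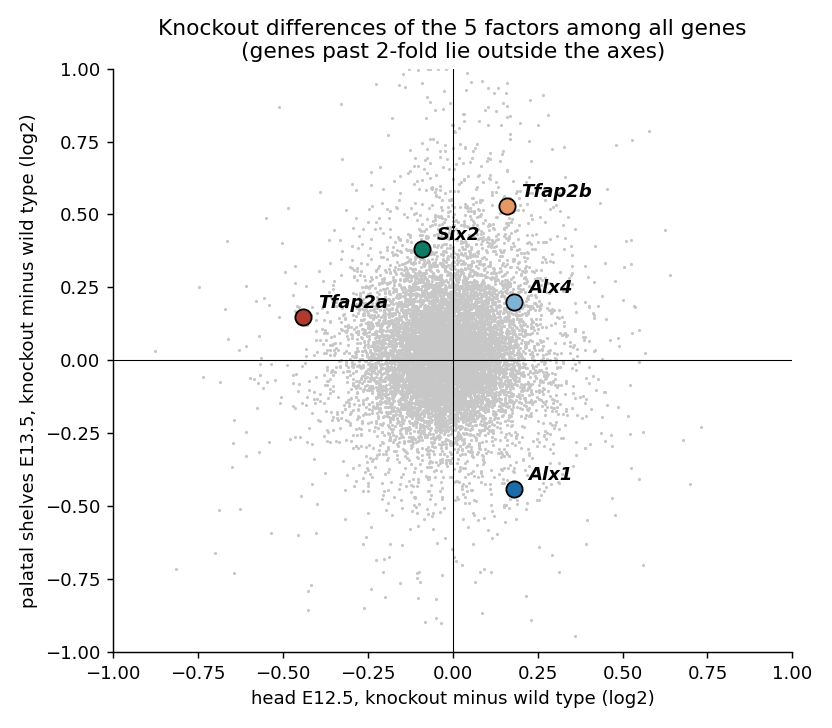
Knockout minus wild-type difference in log2 units in the E12.5 head (horizontal) and the E13.5 palatal shelves (vertical), 1 point per gene that entered both pairs (grey) with the 5 factors in colour. Alx1 lies at 0.18 and -0.44 and Tfap2a at -0.44 and 0.15, whereas Tfap2b and Alx4 are above 0 on both axes.

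The head and shelf differences had opposite signs for Alx1, Tfap2a and Six2 and the same sign for Alx4 and Tfap2b. Of all genes that entered, 55.5% were below 0 in the head pair and 44.8% in the shelf pair. Taking the shelf difference minus the head difference, the value was -0.62 for Alx1, 0.58 for Tfap2a, 0.48 for Six2, 0.37 for Tfap2b and 0.01 for Alx4. Over the 10814 genes that entered both pairs this quantity had an SD of 0.264. Of those genes, 0.971% were as low as Alx1 or lower, and 2.46% were as high as Tfap2a or higher. With 4 arrays this difference between tissues uses up the only residual degree of freedom and cannot be tested.

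Over both tissues together, no factor had a genotype effect past the threshold. The fit was an additive limma model of genotype and tissue on all 11999 genes that entered either pair, with 1 residual degree of freedom and a prior of 5.49 degrees of freedom estimated from all genes. Of all genes tested, 0 (0%) had a limma adjusted p under 0.05 for genotype, and 628 (5.23%) had an unadjusted p under 0.05. Tfap2b had the largest of the 5 coefficients, 0.34 (SE 0.12, 95% interval 0.05 to 0.64), higher in the knockout of both tissues, with a limma adjusted p of 0.919. Alx4 followed with 0.19 (SE 0.10, interval -0.05 to 0.43, limma adjusted p 0.927). For Alx1, Tfap2a and Six2 the coefficients were -0.13, -0.15 and 0.14, each with a limma adjusted p of 0.983 and SE between 0.14 and 0.16. Those intervals were -0.51 to 0.25 for Alx1, -0.51 to 0.22 for Tfap2a and -0.18 to 0.47 for Six2, so none reached a 2-fold effect averaged over the tissues. The width of each interval combines the prior over all genes (SD 0.107) with the gene's own residual, set by its shelf difference minus head difference. That quantity was 0.01 for Alx4, with an SE of 0.10, and -0.62 for Alx1, with an SE of 0.16.

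Between tissues, Six2 was higher in the palatal shelves and Tfap2b was higher in the head. Six2 had a coefficient (shelves minus head) of 1.09 (SE 0.14, 95% interval 0.76 to 1.42), a 2.13-fold difference with a limma adjusted p of 0.00176. In the wild-type arrays alone the difference was 0.85 and in the knockout arrays alone 1.33. Tfap2b had a coefficient of -0.65 (SE 0.12, interval -0.94 to -0.35, 1.57-fold, limma adjusted p 0.00952), with -0.83 in wild type and -0.46 in the knockout. Of all genes, 13.0% were called higher in the shelves and 14.9% higher in the head, so 1 factor of 5 each way is near the share of all genes. Stage differs along with tissue, and the contributions of each cannot be told apart.

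Tfap2a missed the threshold, and neither Alx gene had a tissue difference past it. Tfap2a had a coefficient of -0.49 (SE 0.15, 95% interval -0.86 to -0.13) with a limma adjusted p of 0.0537, and was lower in the shelves in both genotypes (-0.79 in wild type and -0.20 in the knockout). It passed under 4 of 9 alternative settings of the fit. Alx1 had a coefficient of 0.18 (SE 0.16, interval -0.20 to 0.56, limma adjusted p 0.440), with 0.49 in wild type and -0.13 in the knockout. Alx4 had -0.13 (SE 0.10, interval -0.37 to 0.11, limma adjusted p 0.374), with -0.14 in wild type and -0.12 in the knockout.

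**Figure D3:**
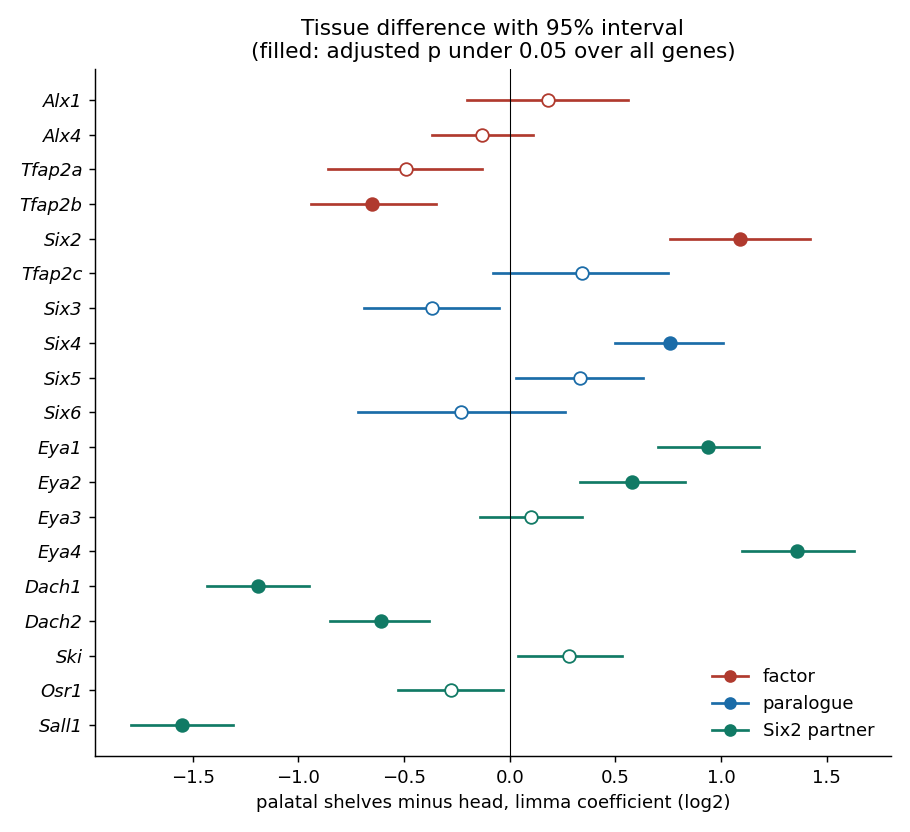
Palatal shelves minus head, additive limma coefficient in log2 units with its 95% interval, for the 5 factors (red), their paralogues that entered the fit (blue) and known partners of Six2 (green). Filled points have an adjusted p under 0.05 over all genes tested: Six2, Six4, Eya1, Eya2 and Eya4 lie to the right of 0, and Tfap2b, Dach1, Dach2 and Sall1 to the left.

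Genes that act with Six2 split between the tissues. Proteins of the sine oculis family bind DNA together with Eya coactivators, and Dach proteins are corepressors of the same network. Of 10 such genes fitted, 4 were higher in the shelves (13.0% of all genes) and 3 in the head (14.9% of all genes). Eya4 (1.36, SE 0.11, limma adjusted p 0.000338), Eya1 (0.94, SE 0.10, limma adjusted p 0.000989), the paralogue Six4 (0.76, SE 0.11, limma adjusted p 0.00290) and Eya2 (0.58, SE 0.11, limma adjusted p 0.00816) were higher in the shelves, as Six2 was. Dach1 (-1.19), Dach2 (-0.61) and the zinc finger gene Sall1 (-1.55) were higher in the head. By genotype none of the 10 passed, and within the pairs none passed the 25% limit in either direction. Median differences were -0.06 (head) and 0.05 (shelves).

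The genes whose profile over the 4 arrays was most like that of Six2 were found by the Euclidean distance between profiles centred on each gene's mean, among 10239 genes that entered both pairs and were not small RNAs, predicted genes or receptors of the olfactory and vomeronasal families. Six2 was the one factor whose levels spanned at least 1 unit. The closest was Cntn3, a neuronal cell adhesion gene of the contactin family (distance 0.026), with levels of 6.38, 6.29, 7.22 and 7.58 in the order wild-type head, knockout head, wild-type shelves and knockout shelves. Lhx6 followed (0.045, with 7.90, 7.87, 8.77 and 9.17) and then Htr1b, a serotonin receptor gene (0.063, with 6.60, 6.51, 7.47 and 7.77). In each the shelf arrays were above the head arrays and the knockout shelf array was highest, which follows from choosing them by likeness to Six2.

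The paralogues of the 5 factors were mostly dim. Of 9 paralogues listed, 7 were measured and 5 entered the fit; the other two listed genes were not analysed here. Tfap2c, the AP-2 gamma gene of surface ectoderm and trophoblast, read 6.13 and 5.77 in the wild-type and knockout head, and 6.11 and 6.47 in the shelves. It stood lower in the knockout head and higher in the knockout shelves, as Tfap2a did, but at levels around the limit for entry. Six6, a factor of hypothalamus and eye, read 5.68 in the wild-type and 6.85 in the knockout shelves, a difference of 1.17, and entered that pair through the knockout array alone. Six5 differed by 0.36 in the shelves (8.15 and 8.51), and Six3, a forebrain and eye factor, by -0.21. Six4, with tissue values like Six2, had genotype differences of -0.15 and 0.05. Tfap2d and Tfap2e stayed below the limit for entry on all 4 arrays.

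Cofactors of AP-2 proteins showed little difference by genotype. The list held Cited proteins, which are coactivators, Kctd proteins, which inhibit AP-2 activity, and other reported partners, 10 measured. Of the 9 that entered each pair, none passed the 25% limit in the head, and 1 (Tfap2c, which is also on this list) did so in the shelves, with a higher level in the knockout. Medians were 0.06 in the head and 0.08 in the shelves. Between tissues 4 of 10 were higher in the head, as Tfap2b was, and none in the shelves, against 14.9% and 13.0% of all genes. The 4 were Cited4 (-0.69, SE 0.13, limma adjusted p 0.0102), Yeats4 (-0.59, SE 0.10, limma adjusted p 0.00592), Cited2 (-0.43, SE 0.12, limma adjusted p 0.0411) and the corepressor Ctbp1 (-0.43, SE 0.10, limma adjusted p 0.0214).

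Other genes of the frontonasal and nasal processes (24 measured, 19 entering each pair) had no shared direction by genotype. In the head none passed the 25% limit (median -0.01), the largest differences being those of the growth factor gene Pdgfc (-0.25), Dlx5 (-0.24) and Foxf1 (-0.23). In the shelves 3 passed it with a higher level in the knockout (7.60% of all genes), of which Tfap2c entered through the knockout array alone. With a lower level 2 passed it (4.65% of all genes), and the median was 0.09. Lhx2, a LIM-homeodomain factor of forebrain and olfactory tissue (-0.73), and Dlx6, a distal-less factor of arch and nasal tissue (-0.63), were the lower ones, as Alx1 was, and Foxf1, a forkhead factor of palatal mesenchyme (0.47), was the highest. Over all 24 measured, 4 passed the limit with a lower level (8.85% of every named gene) and 3 with a higher level (7.25%). The further lower ones, Pax7 (-0.50) and Sp8 (-0.42), were below the limit for entry in the shelves. Between tissues 7 of 21 fitted were higher in the shelves (13.0% of all genes) and 7 in the head (14.9% of all genes). Pax3 and Pax7, which mark crest of the nasal region and the dorsal neural tube, had coefficients of -1.08 (SE 0.10, limma adjusted p 0.000546) and -1.11 (SE 0.16, limma adjusted p 0.00288). Pdgfra, the receptor gene that marks crest mesenchyme, had 0.57 (SE 0.11, limma adjusted p 0.00924).

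General crest mesenchyme factors (16 measured) were close between genotypes. In the head 1 of 14 that entered passed the 25% limit with a lower level in the knockout, Meox2, a mesoderm and palate homeobox gene (-0.39), and none with a higher level. In the shelves none of 12 passed it, and Sox9, a crest and cartilage factor, was the nearest to that limit (0.32, after -0.29 in the head). Medians were -0.04 in the head and 0.12 in the shelves. Twist1, a bHLH factor of head mesenchyme, read 8.71, 8.60, 8.92 and 8.96 in the order given for Cntn3, and Prrx1, a paired-related factor of the same tissue, read 9.84, 9.89, 10.79 and 10.89. Both differed less between the shelf arrays than Alx1 or Tfap2b did.

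**Figure D4:**
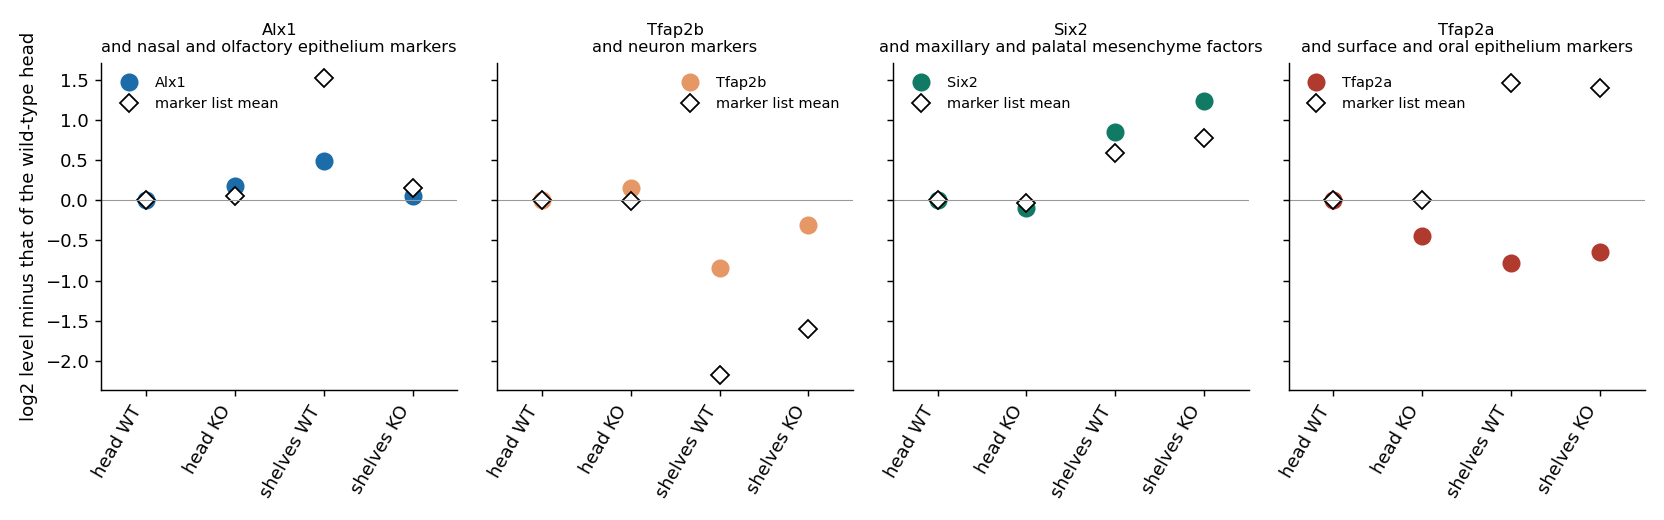
Log2 level minus that of the wild-type head on the 4 arrays, for 4 factors (coloured circles) and the mean of a marker list over all its measured genes (open diamonds), the lists being paired with the factors after their values were seen. The nasal marker mean and Alx1 are both highest on the wild-type shelf array, the neuron marker mean and Tfap2b are both lowest there, and the epithelial marker mean is higher in the shelves where Tfap2a is lower.

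The remaining marker lists are given over all their measured genes, with no limit for entry. Cartilage markers (15) had medians of -0.09 in the head and -0.02 in the shelves. Col9a2 (-0.46) was the 1 gene past the 25% limit in the shelves, and the dim genes Matn3 and Comp (each -0.41) passed it in the head. Osteoblast markers (8) had medians of 0.13 and 0.16. In the head 2 passed the limit with a higher level (6.6% of every named gene). In the shelves 1 passed it with a higher level (7.25%) and 1 with a lower level, Dmp1 (-1.06), which was below the limit for entry there. Skeletal muscle markers (16) had a median of -0.58 in the head, where all 16 were below 0 and 12 passed the 25% limit, and of -0.70 in the shelves, where 14 were below 0 and 11 passed it. Of every named gene, 3.67% passed that limit with a lower level in the knockout head and 8.85% in the knockout shelves. Many muscle markers were dim: 7 in the head and 4 in the shelves were above the limit for entry on both arrays, and of those 6 and 3 passed the 25% limit. Of all genes above it on both arrays, 207 of 10861 in the head and 329 of 10686 in the shelves passed with a lower level. Mean muscle marker levels were 6.63 and 6.03 in the wild-type and knockout head, beside the lower Tfap2a, and the part of that tissue in the Tfap2a difference was not tested. Surface epithelium markers had medians of 0.04 in the head and -0.10 in the shelves, and neural progenitor markers -0.05 and -0.25. In the head the medians were 0.04 for nasal, 0.00 for neuron and 0.10 for hypoxia genes.

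The stretch just upstream of a start site was searched for the letters of 4 binding motifs, since Six2 and Tfap2b were both higher in the knockout shelves. The 250 bases before the start were taken from RefSeq (GRCm38.p6) for Six2, Tfap2b and 2 starts of Tfap2a, read 5′ to 3′ on the gene's strand, and both strands were searched. The T-box core GGTGTGA, a sequence bound by Tbx1 and related factors, was in none of the 4 stretches, and 3.33% of 32851 promoters held it. The AP-2 site GCCNNNGGC (13.7% of promoters) and the sine oculis site TCAGGTTTC (0.387%) were in none of them either. The palindromic paired-homeodomain site TAATNNNATTA, the kind bound by Alx proteins as dimers, was in 0.463% of promoters and occurred once, in Six2, starting 45 bases before the start site. The stretches are shown for the factor that holds the match, in capitals, and for Tfap2b, which holds none. They lie on chr17:85688255-85688504 (minus strand) and chr1:19211804-19212053 (plus strand).
Six2: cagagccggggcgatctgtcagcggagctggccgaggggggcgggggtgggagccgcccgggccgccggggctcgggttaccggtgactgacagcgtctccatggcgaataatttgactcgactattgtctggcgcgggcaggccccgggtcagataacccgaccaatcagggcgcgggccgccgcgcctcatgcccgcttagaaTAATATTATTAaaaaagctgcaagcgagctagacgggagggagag
Tfap2b: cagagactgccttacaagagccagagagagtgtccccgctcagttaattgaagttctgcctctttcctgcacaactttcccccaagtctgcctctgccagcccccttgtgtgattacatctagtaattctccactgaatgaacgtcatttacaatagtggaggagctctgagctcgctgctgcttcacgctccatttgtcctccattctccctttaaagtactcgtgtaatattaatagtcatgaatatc
A match describes these letters only. Both starts of Tfap2a, on chromosome 13, were searched and are not printed.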

How the data were processed

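RNA of 4 samples was hybridized to Affymetrix Mouse Gene 2.0 ST arrays. The authors deposited log2 values per transcript cluster. The submitters' processing notes name RMA and Affymetrix Expression Console, with no version, build or annotation. RMA gives all arrays 1 distribution and so removes a shift common to most genes. Groups come from the sample titles; the description field calls the E13.5 samples heads. Labels give no replicates, so p-values of the additive fit are set against departures from additivity, the shelf difference minus the head difference. They do not measure spread between embryos or repeat arrays.

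Of 41345 clusters, 23521 had 1 gene symbol and were averaged per gene (22180 genes). Entrez identifiers were checked against a RefSeq table of GRCm38.p6, and 0 symbols changed. The additive fit used limma 3.58.1 in R 4.3.3 (lmFit, eBayes, Benjamini-Hochberg over 11999 genes). It was tried on simulated data with planted tissue changes only. The noise there was independent between arrays and drawn from the fit's own prior, so the genotype coefficient and the real spread were not tested. Other values were computed in Python 3.11.15. Differences within a pair were counted at 2-fold and at 1.25-fold, which is the 25% limit of the report. The alternatives varied the scaling of arrays, the choice of cluster, the filter on dim genes, the fold limit and the variance model of limma. The number of arrays limits the precision.

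The members and gene lists were chosen with earlier results of these data known. Named genes are the 5 factors, paralogues, up to 3 genes per list and pair with the largest difference, genes 2-fold apart in a pair, and the 3 genes with the profile closest to a factor that spans 1 unit. The text gives a selection. Genes named for their tissue coefficient (partners of Six2, AP-2 cofactors, Pax3, Pax7 and Pdgfra) were chosen after their values were seen. Twist1, Prrx1, Sox2, Omp, Stoml3, Cnga2, Gnal, Elavl4, Matn3, Comp, Dmp1 and Sp8 were also chosen after their values were seen. So was the choice to count marker lists over all measured genes, because many entered through 1 array only. Some list genes were not analysed here.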

Additional observations from a re-analysis of the deposited data

Results flagged for a closer look

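In 3 of the 5 factors the knockout difference had one sign in the head and the other in the palatal shelves. Alx1 had 0.18 in the head pair and -0.44 in the shelf pair. Tfap2a had -0.44 and 0.15 in that order, and Six2 had -0.09 and 0.38. Each sign rests on 1 array per group, and the difference between tissues was not tested.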

How the results depend on the processing

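Within the pairs, the differences of the 5 factors kept their sign under all 40 alternative values (centring, quantile normalization again, cyclic loess and brightest cluster) and moved by at most 0.05, less than the prior SD of 0.107 from the limma fit. The brightest-cluster values among them could not differ from the main ones, because each factor has 1 cluster. The tissue differences of Six2 and Tfap2b stayed past the threshold under all 9 settings of the fit, with limma adjusted p up to 0.0076 and 0.0343. Tfap2a came past it with cyclic loess (-0.50, limma adjusted p 0.0459), the upper-quartile filter (-0.49, 0.0434), a mean-variance trend (-0.49, 0.00796) and 1 common variance (-0.49, 0.00506). Alx4 was too dim for the upper-quartile filter and has no value there. No factor passed for genotype under any setting, and the lowest adjusted p was 0.376 (Tfap2b, mean-variance trend). Over all genes, 11 passed for genotype with the trend and 150 with 1 common variance, against 0. At the 25% limit, 1 factor in the head and 3 in the shelves were apart, and over all genes 472 and 1402; at 1.5-fold, 52 and 372 genes were. Without a filter 19 genes were 2-fold apart in the head, and with the upper-quartile filter 5 in the head and 32 in the shelves. Of 188 alternative list medians, 177 moved by less than 0.107, 11 by more, and 13 turned sign. The median of nasal markers in the shelves was -2.21 over the genes that entered, against -1.09 over all measured. No paired analysis was possible because each group has 1 array, and no array could be left out within a group for the same reason.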
